A study of Mus musculus with 4 samples.

Results

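Early B cell genes were followed in mouse marrow cells that had been sorted as blood stem cells. The set was 10 genes of the first steps of B cell development: Cd79a, Cd79b, Vpreb1, Vpreb3, Igll1, Pax5, Ebf1, Blnk, Fcrla and Ly6d. They were taken from a list of gene names, which was chosen with earlier results of these data known. Each of the 10 had exactly 1 probe set with 1 gene symbol, so 10 probe sets of 41345, and 10 genes of 22180 named ones, are described. The mice were all 2 months old and were WT, lacked Fancd2 (Fancd2 knockout, Fancd2KO), lacked Foxo3a (Foxo3a knockout, Foxo3aKO) or lacked both (double knockout, DKO). RNA of each genotype went onto 1 Affymetrix Mouse Gene 2.0 ST array. All 4 samples passed the same sort for cells without lineage antigens and without CD34 that carried c-Kit and Sca-1. Each sample title also carries the word SLAM, while the sort markers given here include no SLAM antigen. The strain, the alleles, the lineage antibodies and the number of mice behind each array are not known here. With 1 array per genotype there are no replicates. No test between genotypes is given, and each difference compares 2 arrays.

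B cells arise from lymphoid progenitors in the marrow. The transcription factor Ebf1, acting with Tcf3 and Foxo1, opens the B cell programme, and Pax5 then holds cells to that fate. Pro-B cells make the surrogate light chain from Vpreb1 and Igll1, which pairs with the first heavy chain. The Cd79a and Cd79b proteins carry the signal of this pre-B cell receptor into the cell, where the adaptor Blnk links it to downstream kinases. In a purified stem cell sample such transcripts are usually scarce. In bulk RNA, fewer cells of a type and less RNA per cell cannot be told apart.

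The arrays were alike in overall signal, with medians over all probe sets between 5.27 and 5.34 log2 and pairwise correlations from 0.965 to 0.969. The Fancd2 signal was 6.56 log2 on WT, 6.08 on Fancd2KO, 6.67 on Foxo3aKO and 5.84 on DKO. The Foxo3 signal was 6.62, 6.72, 6.64 and 6.51 log2 in that order, so it was not lower on the Foxo3aKO array. The exons under these probe sets were not known, and the directions below rest on the labels. Transcripts of the gate antigens were present, with Kit between 10.41 and 10.67 log2. Cd34, whose protein the sort selected against, was also bright, between 9.67 and 10.79 log2. Of 13 neutrophil markers all were bright, with list medians from 11.03 on DKO to 11.83 log2 on Foxo3aKO, so the arrays also held RNA of genes best known from granulocytes.

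Signals are log2 values as deposited. The median of all gene values, 5.51 log2, served as the floor below which a signal was called dim. Of the 10 members 9 reached the floor on at least 1 array, and Vpreb1 did not. Of all 22180 named genes 12041 reached it on at least 1 array. Their medians lay close to the floor on each array, at 5.48 log2 on WT, 5.50 on Fancd2KO, 5.50 on Foxo3aKO and 5.54 on DKO. On the WT, Fancd2KO and Foxo3aKO arrays 9 members stood at or above the floor, and on the DKO array 4 did. The 23 background probe sets, grouped by their G and C content, rose with that content to 6.78 log2 on WT, 6.65 on Fancd2KO, 6.22 on Foxo3aKO and 6.91 on DKO. The G and C content of the members' probes was not known. Above the highest background signal lay 4 members on WT, 5 on Fancd2KO, 4 on Foxo3aKO and only Cd79b on DKO. The shares of all named genes above that signal are not given here. Probe set disagreement about a single difference was taken from 527 genes with 2 probe sets that each reached the floor on at least 1 array. The 2 disagreed by less than 0.91 log2 in 95% of genes for Fancd2KO against WT, and by less than 0.90 for both other knockouts. The error of genes dim on all arrays was not measured. Both probe sets of a gene read the same arrays, so variation between mice, sorts, RNA preparations and arrays is left out. The probe set disagreement is the gap between 2 estimates of 1 difference. It puts no bound on the error of a difference between single arrays. The share of all named genes beyond it is not given here.

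The early B cell genes were lower on the DKO array than on WT. Since the list was chosen with earlier results of these data known, the counts below are a description and no independent support. Of the 10 members, 6 were at least 2-fold lower on DKO (Cd79a, Vpreb3, Igll1, Blnk, Fcrla and Ly6d), against 1.18% of all named genes, and 0 were at least 2-fold higher, against 0.987%. At 1.5-fold the same 6 were lower, against 4.93% of genes, and 0 were higher, against 4.95%. Under each of 3 other normalisations Ebf1 joined them, so that 7 were at least 1.5-fold lower, against 4.86% to 5.50% of genes. The median difference of the members was -1.14 log2, with a range from -1.59 to 0.54, and that of all genes was 0.02. Below WT at all lay 9 of 10 members, against 46.9% of genes. All 6 members past 2-fold also lay beyond the probe set disagreement, which follows from the limit itself, since 1 log2 is more than 0.90. With dim signals set to the floor, 4 stayed past 2-fold, against 0.645% of genes, while Igll1 differed by -0.43 and Fcrla by -0.95 log2, and the member median was -0.69.

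The single knockouts showed smaller differences. On the Fancd2KO array 0 members were at least 2-fold lower (1.01% of genes) and 0 at least 2-fold higher (1.15%). At 1.5-fold, Cd79a, Vpreb3, Fcrla and Ly6d were lower (4 of 10, against 5.13% of genes) and Igll1 was higher (1 of 10, against 4.77%). The member median was -0.10 log2 beside 0.00 for all genes, and 6 of 10 members lay below WT, against 50.0% of genes. On the Foxo3aKO array again 0 members were at least 2-fold lower (0.902% of genes) or higher (1.27%). At 1.5-fold, Cd79a, Cd79b, Vpreb3 and Ly6d were lower (4 of 10, against 5.39%) and 0 were higher (against 5.07%). With each array centred on its median, these shares of all genes became 7.06% and 3.999%, and those at 2-fold 1.17% and 1.07%. The median was -0.32 log2 beside -0.01 for all genes, and 8 of 10 members lay below WT, against 51.0%. Beyond the probe set disagreement lay Igll1, upward, for Fancd2KO, and Vpreb3 and Ly6d, both downward, for Foxo3aKO. Vpreb3 on Foxo3aKO, at -0.99 log2, passed 2-fold with median centring (-1.05). The 3 comparisons share the WT array, so an error of that array enters all of them.

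**Figure D1:**
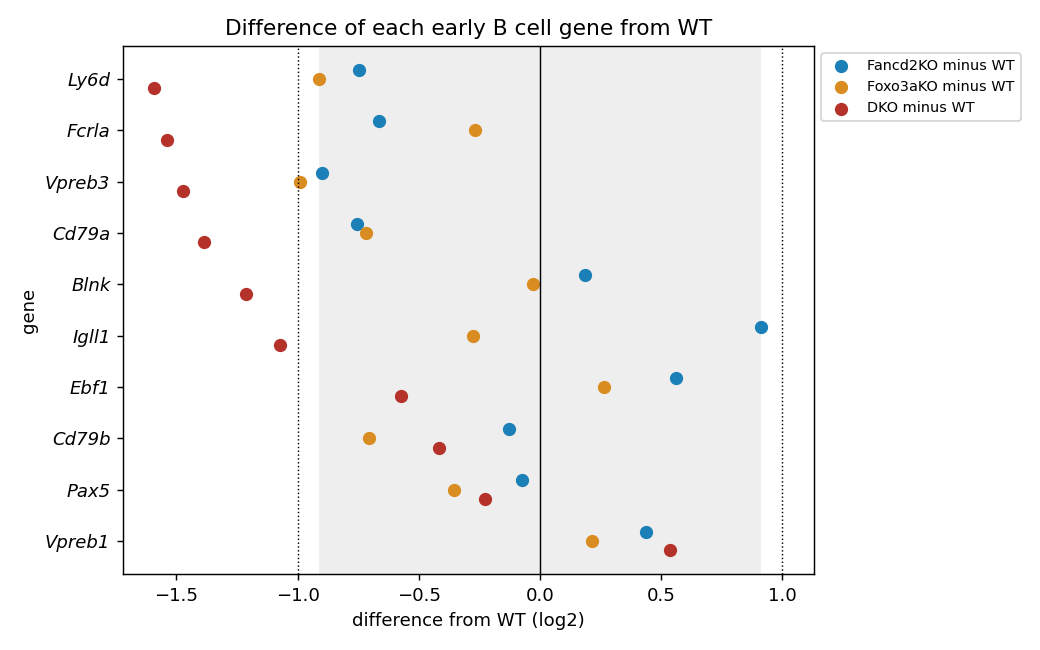
Difference from WT on the log2 scale (horizontal axis) for each early B cell gene (vertical axis), 1 point per knockout array. The grey band spans the probe set disagreement of 95% of genes (0.91 log2) and dotted lines mark 2-fold; 6 DKO points lie left of the 2-fold line, from Igll1 at -1.07 to Ly6d at -1.59, and 0 points of the single knockouts do.

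**Figure D2:**
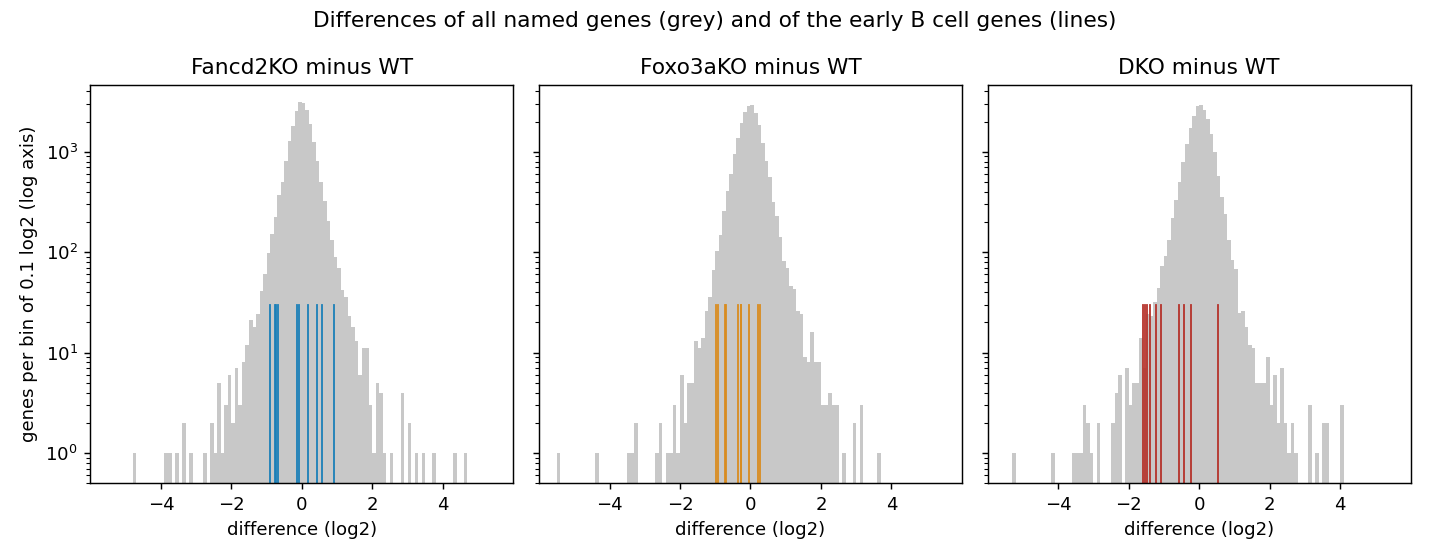
Histograms of the differences of all 22180 named genes in bins of 0.1 log2, with gene numbers on a log axis, and coloured lines at the values of the 10 members. The member lines lie between -0.90 and 0.91 for Fancd2KO, between -0.99 and 0.27 for Foxo3aKO and between -1.59 and 0.54 for DKO, where their median is -1.14.

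Ly6d and Cd79a are described first. Ly6d encodes a surface protein that marks lymphoid progenitors turning to the B lineage. The signal of Ly6d (probe set 17318020) was 7.98 log2 on WT, 7.24 on Fancd2KO, 7.07 on Foxo3aKO and 6.39 on DKO. WT was thus highest and DKO lowest, with both single knockouts between them. The differences from WT were -0.75, -0.91 and -1.59 log2 for Fancd2KO, Foxo3aKO and DKO, the last a 3.01-fold lower signal. Cd79a encodes the Ig-alpha chain of the B cell receptor complex. Its signal (probe set 17475127) was 7.56 log2 on WT, 6.81 on Fancd2KO, 6.84 on Foxo3aKO and 6.17 on DKO. The order was that of Ly6d, except that the single knockouts were nearly equal. Cd79a differed from WT by -0.75, -0.72 and -1.39 log2, the last 2.61-fold lower.

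Vpreb3 and Fcrla also had their highest signal on WT and their lowest on DKO. Vpreb3 encodes a small immunoglobulin-like protein of B lineage precursors that associates with newly made receptor chains. Its signal (probe set 17234441) was 6.97 log2 on WT, 6.07 on Fancd2KO, 5.98 on Foxo3aKO and 5.50 on DKO, just under the floor. The differences from WT were -0.90, -0.99 and -1.47 log2, so Vpreb3 was 1.87-fold lower on Fancd2KO, 1.98-fold lower on Foxo3aKO and 2.77-fold lower on DKO. Fcrla encodes an Fc receptor-like protein that stays inside B cells. Its signal (probe set 17229596) was 6.46 log2 on WT, 5.79 on Fancd2KO, 6.19 on Foxo3aKO and 4.92 on DKO. Fcrla differed from WT by -0.66, -0.27 and -1.54 log2, and its DKO signal was dim.

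Igll1, Blnk and Ebf1 had another order, with Fancd2KO highest and DKO lowest. Igll1 encodes lambda-5, the constant-like part of the surrogate light chain. Its signal (probe set 17328567) was 5.94 log2 on WT, 6.85 on Fancd2KO, 5.66 on Foxo3aKO and 4.87 on DKO. Igll1 was thus 1.88-fold higher than WT on Fancd2KO (0.91 log2), with -0.28 log2 on Foxo3aKO. On DKO, where its signal was dim, it differed by -1.07 log2, or by -0.43 with dim signals set to the floor. The Blnk signal (probe set 17364565) was 6.62 log2 on WT, 6.80 on Fancd2KO, 6.59 on Foxo3aKO and 5.40 on DKO. The single knockouts lay close to WT, at 0.19 and -0.03 log2, and DKO stood apart from it by -1.21 log2. The Ebf1 signal (probe set 17248691) was 5.94 log2 on WT, 6.50 on Fancd2KO, 6.21 on Foxo3aKO and 5.37 on DKO. Ebf1 differed from WT by 0.56, 0.27 and -0.57 log2, all under 1.5-fold as deposited. The DKO difference lies at that limit, with -0.59 under quantile normalisation, -0.60 under median centring and -0.59 under cyclic loess.

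The other 3 members were less than 2-fold from WT on every knockout array. Cd79b encodes Ig-beta, the partner of Cd79a in the receptor complex, and it was the one member above all background signals on each array. Its signal (probe set 17270837) was 8.70 log2 on WT, 8.57 on Fancd2KO, 7.99 on Foxo3aKO and 8.28 on DKO. Foxo3aKO was lowest here, at -0.70 log2 from WT, beside -0.13 for Fancd2KO and -0.42 for DKO. The Pax5 signal (probe set 17424884) was 6.33 log2 on WT, 6.26 on Fancd2KO, 5.98 on Foxo3aKO and 6.11 on DKO. Its range of 0.36 log2 was the narrowest of the 10 members. Vpreb1, the other part of the surrogate light chain, was dim on all arrays (probe set 17328573), with 3.70 log2 on WT, 4.14 on Fancd2KO, 3.91 on Foxo3aKO and 4.23 on DKO. No direction is read from signals at that level. Vpreb2, a near-identical copy that is no member, stood between 5.76 and 6.09 log2, and the 2 genes may share probes, so both values are uncertain.

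**Figure D3:**
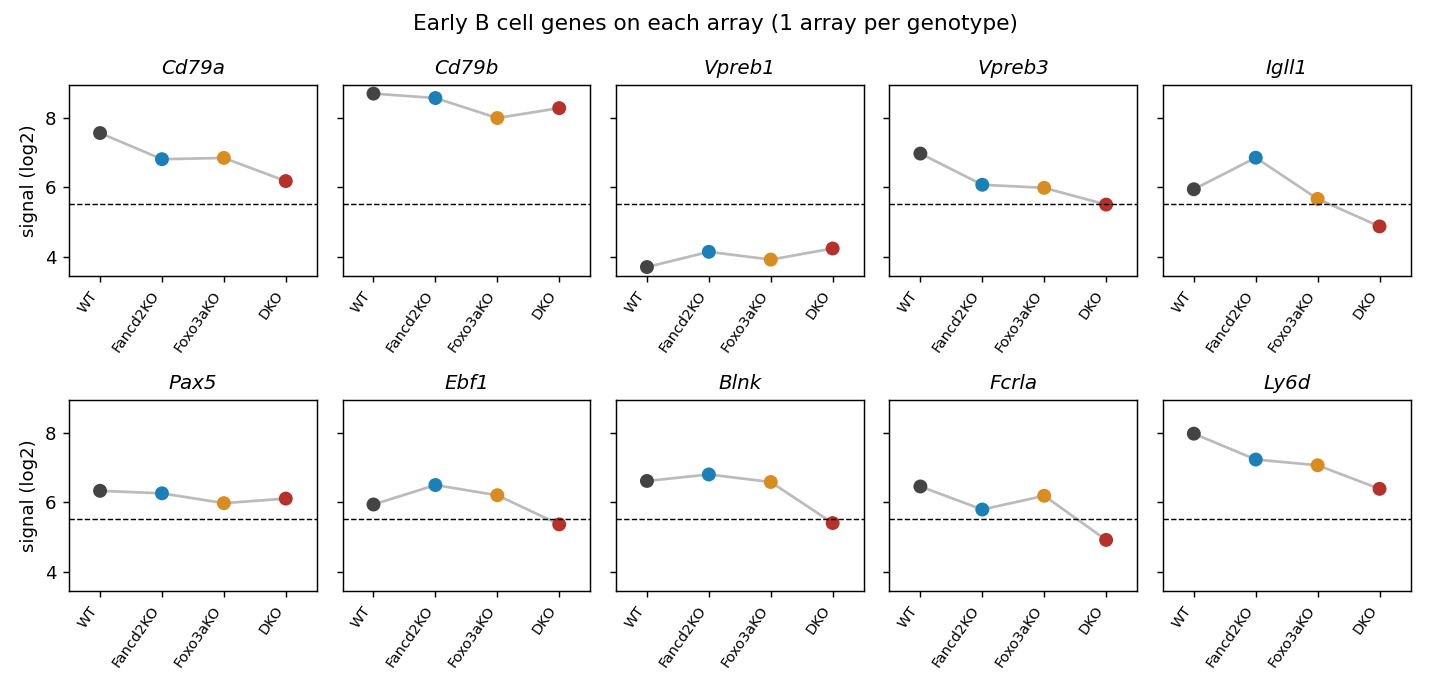
Signal of each early B cell gene (log2, vertical axis) on the WT, Fancd2KO, Foxo3aKO and DKO arrays, 1 point per array, with grey lines to guide the eye and a dashed line at the floor of 5.51 log2. Ly6d, Cd79a, Vpreb3 and Fcrla are highest on WT and lowest on DKO, while Igll1, Ebf1 and Blnk are highest on Fancd2KO and lowest on DKO.

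Each member's range over the 4 arrays was compared with that of other genes. The median range of the members was 1.39 log2, beside 0.43 log2 for all named genes. A range of at least 1 log2 was seen in 7 of 10 members and in 6.71% of all genes. The narrow ranges were those of Pax5, Vpreb1 and Cd79b.

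The DKO array was also set against each single knockout. Against Fancd2KO, Igll1 (-1.98 log2), Blnk (-1.40) and Ebf1 (-1.13) were at least 2-fold lower, 3 of 10 members against 1.03% of genes. The median of the members was -0.74 log2, beside 0.02 for all genes. Against Foxo3aKO, Fcrla (-1.27 log2) and Blnk (-1.18) were at least 2-fold lower, 2 of 10 members against 1.54% of genes. The median here was -0.67 log2, beside 0.04. The probe set disagreement was 0.97 and 0.95 log2, so members past 2-fold (1 log2) in these 2 comparisons lie beyond it by definition. The DKO signals of Igll1, Blnk, Ebf1 and Fcrla were dim. With dim signals set to the floor, a setting chosen after seeing the data, Igll1 (-1.34 log2) and Blnk (-1.30) stayed past 2-fold against Fancd2KO, and Ebf1 (-0.99) did not. Against Foxo3aKO, Blnk (-1.08) stayed past 2-fold and Fcrla (-0.68) did not. The shares of all genes were then 0.609% and 0.911%.

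If the differences of the single knockouts simply added up on the log2 scale, DKO would equal Fancd2KO plus Foxo3aKO minus WT. For Ly6d this sum was 6.32 log2 and the DKO signal was 6.39, a departure of 0.07. For Cd79a the sum was 6.09 log2 and the departure 0.09. Vpreb3 and Cd79b lay above the sum by 0.42 and 0.41 log2, and Pax5 by 0.20. Igll1, Ebf1 and Blnk lay below it, with departures of -1.70, -1.40 and -1.37 log2, and Fcrla with -0.61. The sum draws on 4 arrays and has more error: the probe set disagreement reached 1.35 log2 in 95% of genes. The departures of Igll1, Ebf1 and Blnk lay beyond that as deposited, and those of the other 7 members lay within it. The share of all named genes beyond that limit is not given here. With dim signals set to the floor the departures of Igll1, Ebf1 and Blnk were -1.06, -1.26 and -1.27 log2, within the limit. At that setting these 3 members lay at least 2-fold below the sum, against 1.83% of all named genes. The median departure of the members was -0.03 log2, beside 0.03 for all genes.

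Promoter sequence is shown for the members at least 2-fold lower on DKO, as they moved together on that array. RefSeq's promoter table, on build GRCm38.p6, held 8 of the 10 members, without Cd79b and Ly6d. Printed are the 250 bases before the start of each gene, 5′ to 3′ on the gene's strand. These lie at chr7:24897247-24897496 (plus strand) for Cd79a, chr10:75948050-75948299 (plus) for Vpreb3, chr1:170927584-170927833 (minus) for Fcrla, chr16:16863986-16864235 (minus) for Igll1 and chr19:40994222-40994471 (minus) for Blnk. Capitals mark exact matches to the octamer ATTTGCAT, the letters read by POU factors and their partner Pou2af1, and to CCCNNGGG, the core of the site read by Ebf1, with both strands searched.
Cd79a: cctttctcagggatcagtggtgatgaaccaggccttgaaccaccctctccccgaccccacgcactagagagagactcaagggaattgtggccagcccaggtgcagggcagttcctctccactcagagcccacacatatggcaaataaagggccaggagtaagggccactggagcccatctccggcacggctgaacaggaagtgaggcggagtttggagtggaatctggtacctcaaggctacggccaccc
Vpreb3: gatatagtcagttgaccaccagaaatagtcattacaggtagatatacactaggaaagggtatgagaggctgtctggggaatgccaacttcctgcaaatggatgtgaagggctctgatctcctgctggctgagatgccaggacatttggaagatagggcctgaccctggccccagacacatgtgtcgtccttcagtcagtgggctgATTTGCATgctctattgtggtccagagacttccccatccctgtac
Fcrla: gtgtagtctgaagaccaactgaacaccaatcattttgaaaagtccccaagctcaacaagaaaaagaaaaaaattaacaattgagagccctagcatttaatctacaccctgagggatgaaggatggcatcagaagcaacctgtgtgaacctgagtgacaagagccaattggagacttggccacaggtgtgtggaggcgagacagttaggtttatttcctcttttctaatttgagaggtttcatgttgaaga
Igll1: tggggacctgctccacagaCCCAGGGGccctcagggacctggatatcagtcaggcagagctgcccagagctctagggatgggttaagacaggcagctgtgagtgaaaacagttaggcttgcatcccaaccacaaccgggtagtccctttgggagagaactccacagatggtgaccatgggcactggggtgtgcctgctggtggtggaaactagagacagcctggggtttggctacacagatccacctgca
Blnk: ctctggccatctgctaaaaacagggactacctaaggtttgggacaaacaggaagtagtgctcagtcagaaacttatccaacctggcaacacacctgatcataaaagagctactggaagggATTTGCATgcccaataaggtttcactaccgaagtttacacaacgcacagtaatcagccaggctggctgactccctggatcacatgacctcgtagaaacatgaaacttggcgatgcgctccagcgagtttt

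The octamer was present in the windows of Vpreb3, where it begins 45 bases before the start, and Blnk, where it begins 130 bases before. It was held by 2 of the 9 member windows (Ebf1 has 2), beside 1.60% of 32851 promoter windows of the same length, and it was chosen for search after these sequences had been read. The Ebf1 core was present only in the Igll1 window, 231 bases before the start, beside 11.8% of all windows. An E-box (CANNTG, the letters read by Tcf3) was present in 8 of the 9 member windows, beside 66.2% of all windows, and 0 of the capital matches overlapped one. Vpreb1 and Igll1 are neighbours on chromosome 16. A match here is a description of letters, and binding was not measured.

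Other genes of B cell development were read from lists. Of 16 further transcription factors of the B lineage, 13 were lower than WT on DKO, against 46.9% of all genes, with a median of -0.21 log2. At least 2-fold lower were 2, against 1.18% of all genes. These were Pou2af1, the coactivator that binds POU factors at the octamer, and Spib, an Ets factor of B cells and plasmacytoid dendritic cells. The Pou2af1 signal was 7.84 log2 on WT, 7.06 on Fancd2KO, 6.58 on Foxo3aKO and 6.33 on DKO, and it was -1.27 from WT on Foxo3aKO and -1.51 on DKO. The Spib signal was 6.47, 5.78, 5.49 and 5.24 log2 in that order. Both were highest on WT and lowest on DKO, as were Ly6d, Cd79a, Vpreb3 and Fcrla. This order was not particular to B lineage genes, since Dntt, Flt3, Epx, Prg3 and Klf1 of other lists had it too. The share of all named genes with this order is not given here. Irf8 was 1.25 log2 higher than WT on Foxo3aKO and is also a myeloid and dendritic cell factor. On Fancd2KO and Foxo3aKO the list medians were -0.22 and -0.18 log2, with 0 and 1 of 16 at least 2-fold lower, against 1.01% and 0.902% of all genes.

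Genes of lymphoid progenitors and of receptor gene recombination had medians below WT on all 3 knockout arrays, which share the WT array. Of 10 listed genes 8 had a probe set with 1 symbol. Their medians were -0.72 log2 on Fancd2KO, -0.71 on Foxo3aKO and -1.03 on DKO. In that order 8, 7 and 7 of the 8 lay below WT, against 50.0%, 51.0% and 46.9% of all genes. At least 2-fold lower were 3, 2 and 4, against 1.01%, 0.902% and 1.18%. Dntt, which adds bases at the joints of receptor genes, stood at 8.74 log2 on WT, 7.44 on Fancd2KO, 6.57 on Foxo3aKO and 5.62 on DKO. Flt3, a cytokine receptor of multipotent and lymphoid progenitors, stood at 8.97, 7.34, 7.37 and 6.67 log2. Il7r, the receptor through which interleukin 7 sustains B cell precursors, stood at 6.20, 5.64, 5.54 and 4.89 log2. Satb1 was 1.30 log2 lower than WT on DKO, and Rag2, dim on all arrays, was 1.31 lower on Fancd2KO.

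Signalling genes downstream of the receptor stood near WT on DKO. Of 18 listed genes 14 were measured, and on DKO 7 were lower and 7 higher than WT, with a median of 0.00 log2 and 0 at least 2-fold apart. Of all genes 46.9% were lower, 1.18% at least 2-fold lower and 0.987% at least 2-fold higher. On Fancd2KO and Foxo3aKO the medians were -0.05 and 0.04 log2. The largest differences were those of the adaptor Bank1 (0.78 log2 on Foxo3aKO), the adaptor Pik3ap1 (0.57 on DKO) and the kinase subunit Pik3cd (0.51 on DKO). Several of these genes, such as Syk, Btk, Vav1 and Ptpn6, are also expressed by myeloid cells.

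Markers of later B cells were mixed. Of 12 measured genes of mature B cells, 5 were lower and 7 higher than WT on DKO (median 0.14 log2), beside 46.9% of all genes lower. Of the 12, 9 reached the floor on at least 1 array, and Cr2, Cd22 and Cxcr5 did not. At 1.5-fold 3 were higher on DKO, against 4.95% of all genes, and 1 was lower, against 4.93%. The 3 were H2-Ab1 (0.94 log2), H2-Aa (0.79) and Cd40 (0.61, dim on WT). Ms4a1 (-0.44) and Tnfrsf13c (-0.51) were lower by less than 1.5-fold. Ighm, the heavy chain constant gene of IgM, was the exception past 2-fold, with 12.73 log2 on WT, 11.38 on Fancd2KO, 10.09 on Foxo3aKO and 11.04 on DKO. Ighm was brightest on WT and dimmest on Foxo3aKO, an order that differs from that of Ly6d. Of 8 plasma cell genes, Jchain, which joins secreted immunoglobulins, was lower than WT by 0.96, 1.37 and 1.47 log2 on Fancd2KO, Foxo3aKO and DKO, and Sdc1 by 0.46, 0.81 and 1.38. Tnfrsf17 was dim on all arrays. The plasma cell list median was -0.12 log2 on DKO.

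Markers of other cells moved on the same arrays, and their part in the values of the early B cell genes was not tested. Of 12 monocyte and macrophage markers 9 were at least 2-fold higher than WT on DKO, with list medians of 6.83 log2 on WT and 8.58 on DKO. Fcgr4, Clec4a3 and Cd300e were higher by 4.08, 4.01 and 3.65 log2. The other 3 were lower, F13a1 by 1.21, Ccr2 by 0.81 and Ly6c2 by 0.38 log2. Over all named genes, 0.987% were at least 2-fold higher on DKO, 1.18% at least 2-fold lower and 46.9% below WT. Of 10 markers of eosinophils, mast cells and basophils 6 were at least 2-fold lower on DKO, with list medians of 8.72 on WT and 6.70 log2 on DKO, led by Prg3 (-3.53), Epx (-3.27) and Mcpt8 (-1.97). On Fancd2KO all 10 were lower (median -0.96 log2), against 50.0% of all genes, and 4 at least 2-fold lower, against 1.01%. On Foxo3aKO 5 were lower and 5 higher (median -0.07 log2). There 2 were at least 2-fold lower and 1 at least 2-fold higher, against 0.902% and 1.27% of all genes. Of 10 plasmacytoid dendritic cell markers, 9 were lower on DKO (median -0.43 log2), among them Klk1 (-3.01) and Siglech (-0.87), both dim on DKO. On Foxo3aKO 7 were higher and 3 lower (median 0.09 log2), with Siglech 1.31 higher, Bst2 0.84 lower and Lag3 0.79 lower. The T and NK cell list had medians of 0.12, 0.31 and 0.08 log2 on Fancd2KO, Foxo3aKO and DKO. On each array 6 of its 10 measured genes were higher and 4 lower, beside 50.0%, 51.0% and 46.9% of all genes below WT. Cd3d was 2.24 and Cd3g, dim on all arrays, 1.20 higher than WT on Foxo3aKO. Cd3e, dim on WT, was 1.06 higher on Fancd2KO, and Gzmb, dim on all arrays, was 1.02 lower there. Neutrophil markers had medians of -0.37, 0.40 and -0.44 log2 from WT on Fancd2KO, Foxo3aKO and DKO, and erythroid markers of -0.58, -0.50 and -0.24. Ly6g was 1.35 log2 lower than WT on Fancd2KO and 1.79 lower on DKO. Retnlg was 1.24 log2 lower and Elane 1.01 higher than WT on DKO. Mmp8 was 1.01 log2 higher than WT on Foxo3aKO. Car1, Ermap and Hemgn were 1.48, 1.06 and 1.02 lower than WT on Foxo3aKO. Stem cell gate genes had medians of 0.02, -0.09 and 0.14 log2 on Fancd2KO, Foxo3aKO and DKO, with 0 of 10 measured genes at 2-fold on DKO. Slamf1 was 1.11 log2 higher than WT on Fancd2KO, and Cd34 was 1.12 lower on Foxo3aKO.

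**Figure D4:**
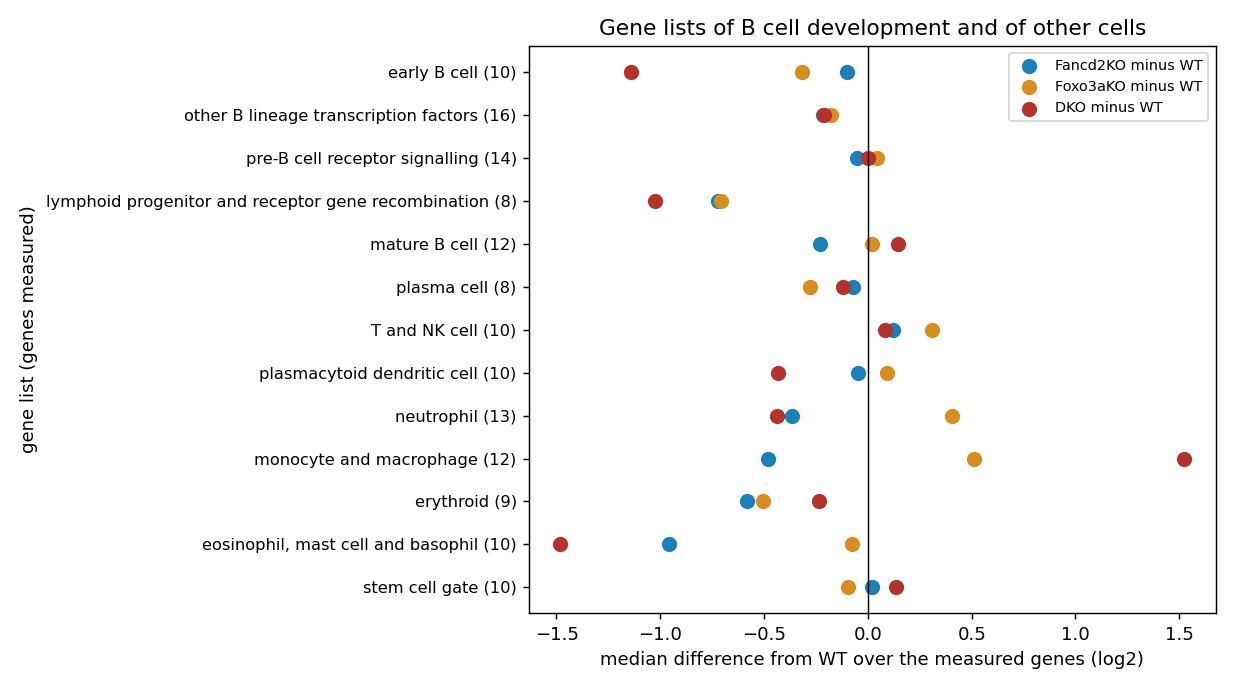
Median difference from WT (log2, horizontal axis) over the measured genes of each list (vertical axis, number of genes in brackets), 1 point per knockout array. The early B cell list (-1.14) and the lymphoid progenitor list (-1.03) lie left of 0 on DKO, the receptor signalling list lies near 0, the monocyte list lies at 1.52, and the list of eosinophils, mast cells and basophils lies at -1.48.

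Of 12041 genes that reached the floor, 10855 remained once the members were set aside together with small RNAs, odorant, taste and vomeronasal receptors, antigen receptor segments, pseudogenes and entries named only as clones or predictions. Among them the 5 whose profile over the 4 arrays was most like the members' median profile were Cep57l1, Ikzf2, Etnk1, Pafah1b3 and Lin9. The measure was the root mean square distance between centred signals, which was 0.09 log2 for Cep57l1 and Ikzf2 and 0.10 for the other 3. Ikzf2, the Ikaros family factor Helios, stood at 8.82 log2 on WT, 8.70 on Fancd2KO, 8.45 on Foxo3aKO and 7.85 on DKO. The members themselves lay farther from their own median profile, from 0.23 log2 for Cd79a to 0.53 for Vpreb1. A likeness over 4 arrays is weak, because few values describe each profile.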

How the data were processed

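RNA of 4 sorted samples, 1 per genotype, was measured on Affymetrix arrays. The deposited table holds log2 expression values made by the authors, and the submitters' processing notes name Affymetrix Expression Console. The sources used here do not name its version, summarisation or normalisation. The 41345 probe sets comprised 23521 with 1 gene symbol, 1814 with several and 16010 without one. The probe set with the highest mean stood for its gene, which gave 22180 genes. All 10 members matched RefSeq gene identifiers. Log2 values were subtracted, and genes past 2-fold or 1.5-fold were counted with no floor, since the set is a marker list. Alternatives were quantile normalisation, median centring, cyclic loess (limma 3.58.1), the mean of all probe sets and 2 treatments of dim signals. Subtraction and counting were checked on simulated data. The members and lists were chosen with earlier results of these data known. The text names all members, list genes at least 2-fold from WT in any comparison or otherwise the 3 largest, up to 3 per marker list, and the 5 genes most like the members. Further list genes are named as examples, chosen after their values were seen. The number of arrays limits the precision. Python 3.11.15 and pandas 2.3.3 were used.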

Additional observations from a re-analysis of the deposited data

Results flagged for a closer look

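For 5 members the loss of 1 gene went with differences of opposite sign according to whether the other gene was present. For the loss of Fancd2 this was 5 of 10 members, beside 50.7% of all named genes, and for the loss of Foxo3a 1 of 10, beside 49.7%. Each effect rests on 1 pair of arrays, and the difference between effects was not tested. Loss of Fancd2 went with 0.91 log2 for Igll1 when Foxo3a was present and with -0.79 when it was absent, a difference of -1.70. For Ebf1 the values were 0.56 and -0.84, a difference of -1.40, and for Blnk 0.19 and -1.18, a difference of -1.37. For Cd79b they were -0.13 and 0.29 (0.41), and for Pax5 -0.07 and 0.13 (0.20), both within the probe set disagreement. Loss of Foxo3a went with 0.27 log2 for Ebf1 when Fancd2 was present and with -1.13 when it was absent, again a difference of -1.40. The DKO signals of Igll1, Ebf1 and Blnk were dim, and with dim signals set to the floor these 3 differences were -1.06, -1.26 and -1.27.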

How the results depend on the processing

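Across quantile normalisation, median centring, cyclic loess, both treatments of dim signals and leaving out members, 75 of 78 list medians and counts stayed close to the values above: medians within 0.14 to 0.15 log2, counts within 1.5 times. The mean of all probe sets could change none of them, since each member has 1 probe set. Leaving out 1 member can only move a list median to 1 of the values next to it. Keeping only genes that reach the floor drops only Vpreb1, so it repeats the median without Vpreb1 and cannot change a count of lower members. When dim signals were set to the floor, the DKO list median was -0.69 log2, and Igll1 (-0.43) and Fcrla (-0.95) were under 2-fold, which left 4 members at least 2-fold lower. The cause is the floor itself, since both DKO signals lay under it. The count at least 2-fold lower on Foxo3aKO was 1, Vpreb3, with quantile normalisation (0.996% of all genes) and 1 with median centring (1.17%), where it had been 0. Of 90 values of single members under the 3 other normalisations, 0 changed sign, and the remaining settings could not change a sign. With dim signals set to the floor, a setting added for the contrasts between knockouts after seeing the data, Ebf1 against Fancd2KO (-0.99 log2) and Fcrla against Foxo3aKO (-0.68) were under 2-fold. Leaving out each member in turn gave DKO medians from -1.21 to -1.07 log2. Signals of members near or under the floor limit the size of their differences. No paired analysis was possible because each genotype had 1 array.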
